A study of Arabidopsis thaliana with 16 samples.

Results

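PUB19, PUB22, PUB23, PUB24, PUB25 and PUB26 are 6 plant U-box genes of Arabidopsis thaliana that encode ubiquitin ligases. They were chosen by gene symbol from the probe annotation of the array, as 6 of 13350 named genes, and each was represented by 1 probe set among the 22746 tested. The choice was made with measured values of these arrays in view, and the sources used here do not say which. As the response to cycloheximide may have been among them, the 2 cycloheximide comparisons in roots without dexamethasone are described without a test, and the same treatment was tested in roots with dexamethasone, which shared no array with them. Whether those arrays also informed the choice is not known.

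A ubiquitin ligase (E3) brings a ubiquitin-conjugating enzyme (E2) to a substrate protein, which is then tagged with ubiquitin and often degraded by the proteasome. The U-box is the domain that binds the E2. It folds like a RING finger but holds no zinc, and in these 6 proteins it is followed by armadillo repeats that contact other proteins. PUB22, PUB23 and PUB24 are known to dampen immune responses to microbial patterns, and PUB22 and PUB23 also act in the drought response. PUB25 and PUB26 are close paralogs with known roles in immunity and cold tolerance, and PUB19 acts in abscisic acid and drought signalling.

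Transcripts were measured in whole roots of 5-day-old seedlings on 16 Affymetrix arrays. All plants carried gLBD16:GR, the transcription factor LBD16 joined to the glucocorticoid receptor and expressed from its own regulatory region, in the lbd16-1 lbd18-1 lbd33-1 background. The steroid dexamethasone (DEX, 2 µM) lets such a fusion enter the nucleus. Cycloheximide (CHX, 10 µM) blocks protein synthesis, and NAA (1 µM) is a synthetic auxin. Seedlings received every combination of the 3 for 4 h, which gave 8 groups of 2 arrays: mock (0.1% DMSO), DEX, NAA, NAA+DEX, CHX, DEX+CHX, NAA+CHX and NAA+DEX+CHX. No group lacked the fusion or the 3 mutations, so an effect of DEX itself and one of LBD16 cannot be told apart. The 2 arrays per group came from RNA sets that the submitters describe as independent, with no word on separate cultures, so the p-values reflect only how far these samples spread.

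LBD16 itself was at 385.8 to 504.3 intensity units on the mock and DEX arrays and at 3081 to 5217 on the NAA and NAA+DEX arrays. On the CHX and DEX+CHX arrays it was at 774.5 to 940.1, and on the NAA+CHX and NAA+DEX+CHX arrays at 1127 to 1440. Its probe set does not show whether the fusion was active. Of 15 root markers in the reference, 1 was measured, the root hair gene EXPA7. It was at 973 to 1258 on the mock arrays and 1032 to 1306 with CHX, 1360 to 1376 with DEX and 972.3 to 1008 with DEX+CHX. With NAA it was at 1374 to 1382, with NAA+CHX at 721 to 744.9, with NAA+DEX at 1104 to 1257 and with NAA+DEX+CHX at 597.7 to 667.3, so it was lower with CHX in all but the first of these 4 pairs. The shoot list matched only FDH, which here is AT5G14780, a formate dehydrogenase gene that marks no tissue, so the tissue check rests on 1 gene. The median intensity of all probe sets ran from 150.9 to 174.9 on arrays without CHX and from 179.3 to 189.3 on the others. As a measure of RNA integrity, the signal of the actin control at its 3' end over that at its 5' end ran from 17.58 to 26.3 in arrays without CHX and from 11.07 to 23.46 in arrays with CHX. For the GAPDH control the same ratio ran from 1.059 to 1.37 without CHX and from 1.045 to 1.565 with it. For the ubiquitin control it ran from 2.101 to 3.011 and from 2.295 to 3.696, so the controls did not shift alike. The part of these differences in the CHX results was not tested beyond the rescaling given with them.

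The 6 PUB genes were all higher in every array with CHX than in every array without it, as were 17.5% of all probe sets. PUB24 had the widest separation: its lowest CHX array was 39.7 times its highest array without CHX. The corresponding ratio was 7.61 for PUB23, 7.44 for PUB22, 5.01 for PUB26, 3.73 for PUB25 and 1.43 for PUB19. Intensities of different probe sets do not compare transcript amounts between genes, so levels are compared only within a gene. Because whole roots were used, more cells with a transcript and more transcript per cell cannot be told apart.

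**Figure D1:**
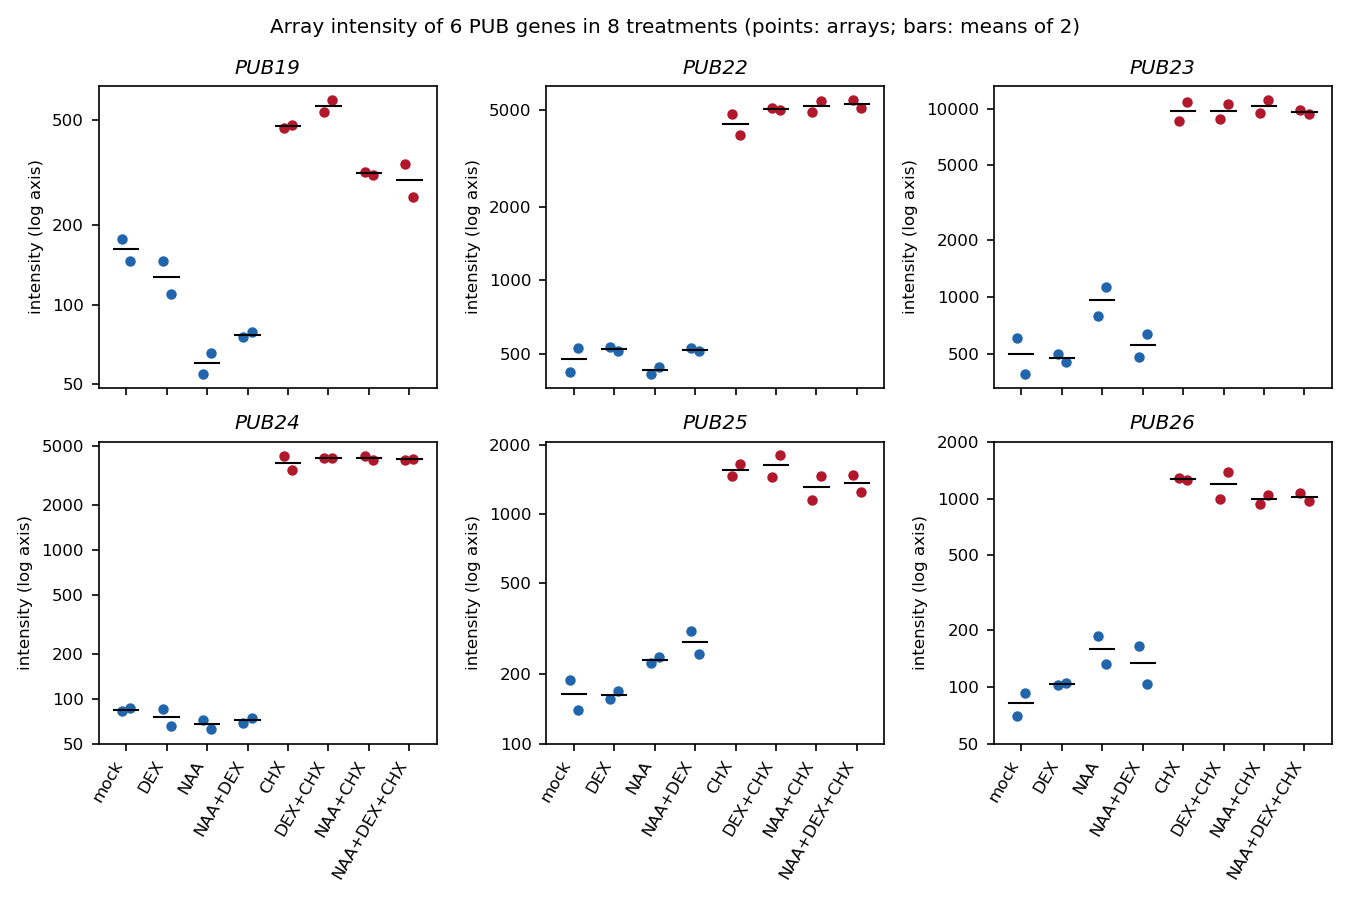
Array intensity of each PUB gene (log axis) in the 8 treatments, with 1 point per array and a bar at the mean of 2. In every panel the 8 arrays with CHX lie above the 8 arrays without it, and in PUB19 the NAA arrays lie below their counterparts without NAA.

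PUB24 (AT3G11840), a ligase of pattern-triggered immunity, was at 83 and 86.5 on the mock arrays, 85.4 and 65.7 with DEX, 71.9 and 62.6 with NAA, and 69 and 74.8 with NAA+DEX. With CHX it was at 4268.4 and 3432.2, with DEX+CHX at 4186.9 and 4161.6, with NAA+CHX at 4311.1 and 4048.2, and with NAA+DEX+CHX at 4048.5 and 4120.5. The 8 arrays with CHX lay within a range of 1.26-fold, and those without it within 1.38-fold. Both NAA arrays and both NAA+DEX arrays were below both mock arrays, and both NAA+DEX+CHX arrays were below both DEX+CHX arrays, while the other pairs of groups overlapped within each set.

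PUB22 (AT3G52450), its relative in immune and drought responses, was at 418.3 and 529.3 on the mock arrays, 532.1 and 512.5 with DEX, 412.4 and 441.9 with NAA, and 525 and 512.1 with NAA+DEX. Its CHX values were 4811.9 and 3956.6 for CHX alone, 5089.9 and 5001.4 for DEX+CHX, 4916 and 5429.3 for NAA+CHX, and 5508.6 and 5084.9 for all 3 compounds. The CHX arrays without DEX or NAA were the lowest of the 8 with CHX, and the other 3 groups overlapped. Without CHX the mock arrays overlapped the other 3 groups, while both NAA arrays were below both DEX and both NAA+DEX arrays.

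PUB23 (AT2G35930), the closest relative of PUB22, was at 605.5 and 390.8 on the mock arrays, 497.9 and 454.7 with DEX, 792.7 and 1134.8 with NAA, and 482.1 and 637.3 with NAA+DEX. It reached 8634.5 and 10831.6 with CHX, 8819.8 and 10600.3 with DEX+CHX, 9532.1 and 11173.1 with NAA+CHX, and 9891.4 and 9423.7 with NAA+DEX+CHX. Both NAA arrays were above all other arrays without CHX, and the remaining 3 groups without CHX overlapped. All 4 groups with CHX overlapped.

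PUB25 (AT3G19380), which targets the immune kinase BIK1, was at 188.8 and 139.5 on the mock arrays, 155.7 and 169.4 with DEX, 223.5 and 238.1 with NAA, and 308 and 245.9 with NAA+DEX. With CHX it was at 1457.9 and 1641.6, with DEX+CHX at 1443.1 and 1806.8, with NAA+CHX at 1149.6 and 1459.4, and with NAA+DEX+CHX at 1475.2 and 1238.8. The 4 arrays without CHX that had NAA were above the 4 that lacked it. Among the groups with CHX all ranges overlapped.

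PUB26 (AT1G49780), the paralog of PUB25, was at 70.5 and 93.2 on the mock arrays, 102.2 and 104.9 with DEX, 186.6 and 132.8 with NAA, and 164.5 and 103.7 with NAA+DEX. Its CHX values were 1291.9 and 1258.7 for CHX alone, 995.2 and 1384.1 for DEX+CHX, 935.4 and 1047.9 for NAA+CHX, and 1065.5 and 973.4 for all 3 compounds. The mock arrays were the lowest without CHX, and both NAA+CHX and NAA+DEX+CHX lay below CHX alone.

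PUB19 (AT1G60190) had the lowest ratio of CHX arrays to the rest. It was at 177.7 and 146.2 on the mock arrays, 146.3 and 109.7 with DEX, 54.8 and 66 with NAA, and 75.5 and 78.9 with NAA+DEX. With CHX it was at 468.1 and 479.4, with DEX+CHX at 537.9 and 597, with NAA+CHX at 317.7 and 311.2, and with NAA+DEX+CHX at 340.2 and 254.8. In both sets the 4 arrays with NAA were below the 4 without it, and the spread over treatments was 3.24-fold without CHX and 2.34-fold with it.

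In the comparisons described without a test, CHX alone exceeded mock by a ratio of mean intensities of 45.4 for PUB24, 19.5 for PUB23, 15.6 for PUB26, 9.44 for PUB25, 9.25 for PUB22 and 2.92 for PUB19. In NAA-treated roots the ratios in that order were 62.1, 10.7, 6.21, 5.65, 12.1 and 5.21. The arrays of all 6 genes were higher without overlap in both comparisons, as were those of 33% and 33.5% of all probe sets. Of all probe sets, 23% and 22% were raised by the test used below, and nothing is read from the members' counts here.

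CHX raised all 6 PUB genes in roots that also had DEX, both without and with NAA. By its title the series profiles primary targets of LBD16. These comparisons show the difference that CHX made where DEX was present. Differences were taken between group means of log2(intensity + 16) and tested with limma across all probe sets, and a gene was said to rise or fall at a Benjamini-Hochberg adjusted p under 0.05. All 6 rose in DEX+CHX against DEX, where 24.2% of all probe sets rose, and all 6 rose in NAA+DEX+CHX against NAA+DEX, where 22.3% did. Arrays were higher without overlap for 35.2% and 32.2% of all probe sets. The median log2 difference was 3.27 over the 6 genes and -0.02 over all probe sets in the first comparison, and 3.06 and -0.1 in the second. Few probe sets changed with DEX (0.0528% to 2.93% over the backgrounds tested), so these comparisons lie close to those described without a test. If the genes were chosen for their CHX response, the counts and p-values are no independent support.

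PUB24 rose most in DEX+CHX against DEX, by 5.52 on the log2 scale (SE 0.14, limma adjusted p = 1.9e-10), and ranked 203rd highest of 22746 probe sets. PUB23 rose by 4.3 (SE 0.24, limma adjusted p = 5.3e-08) and PUB26 by 3.32 (SE 0.23, limma adjusted p = 3e-07). These are rises to a ratio of mean intensities of 55.2, 20.4 and 11.5. PUB22 rose by 3.23 (SE 0.14, limma adjusted p = 7.9e-09), PUB25 by 3.19 (SE 0.19, limma adjusted p = 9.4e-08) and PUB19 by 2.03 (SE 0.17, limma adjusted p = 1.6e-06). PUB22, PUB25 and PUB26 lay within 1 SE of each other, and PUB19 ranked 1585th highest.

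In NAA+DEX+CHX against NAA+DEX the log2 rises were 5.54 for PUB24, 4.08 for PUB23, 3.31 for PUB22, 2.81 for PUB26, 2.23 for PUB25 and 1.74 for PUB19. The limma adjusted p-values ran from 2e-10 for PUB24 to 5.3e-06 for PUB19, and each of the 6 genes was higher in 2 of 2 arrays than in both controls. Centring each array on its median lowered the CHX differences by 0.21 without NAA and by 0.09 with it, and all 6 genes still rose in both comparisons.

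**Figure D2:**
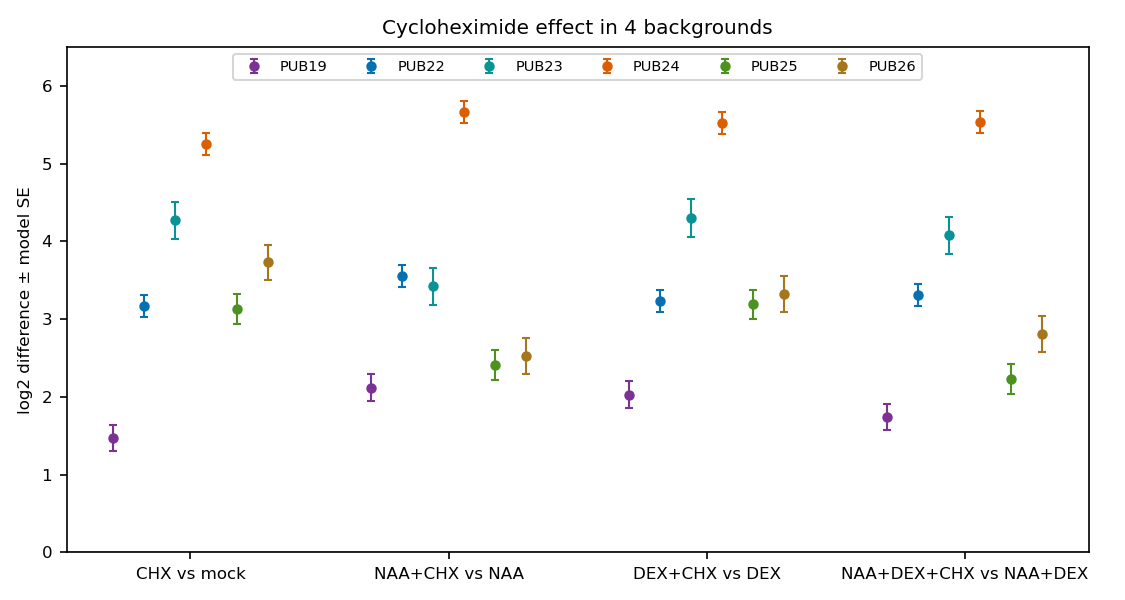
Log2 difference between arrays with and without CHX for each PUB gene in 4 backgrounds, with the model SE as bars. PUB24 is highest in all 4, at 5.25 to 5.66, and PUB19 is lowest in all 4, at 1.47 to 2.12. The first 2 comparisons are descriptions without a test.

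**Figure D3:**
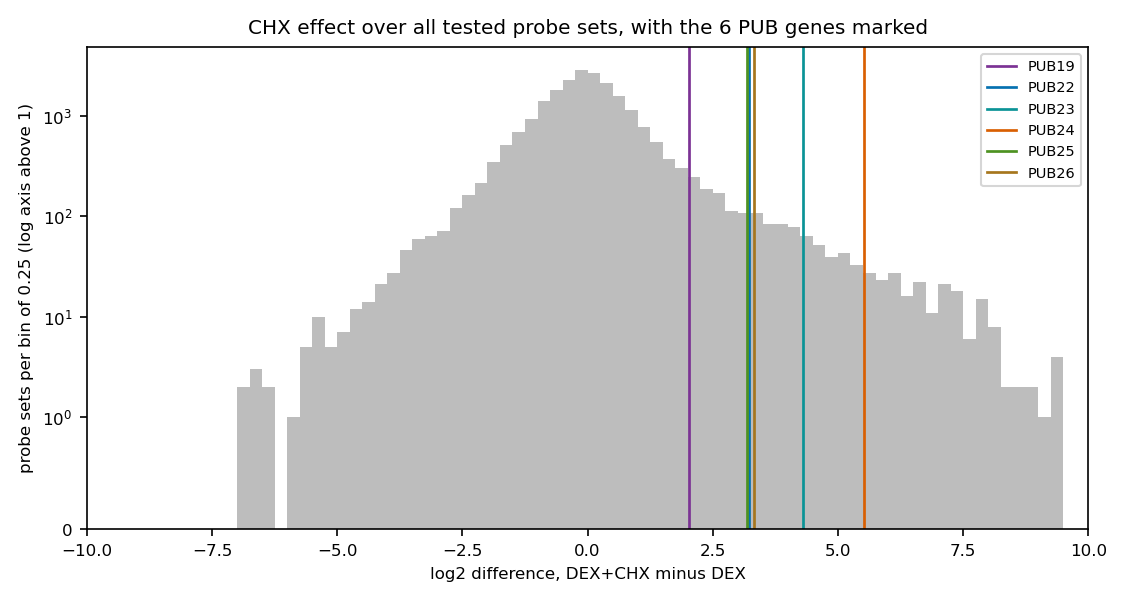
Number of probe sets by log2 difference of DEX+CHX minus DEX over all 22746 probe sets, with a vertical line at each PUB gene. The 6 lines lie between 2.03 and 5.52, on the right side of a distribution whose median is -0.02.

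NAA lowered PUB19 and raised PUB23 and PUB26 against mock, while PUB22, PUB24 and PUB25 did not pass the test. The background was 7.3% of probe sets raised and 6.07% lowered. PUB19 fell by 1.22 on the log2 scale (SE 0.17, limma adjusted p = 0.00085), to a ratio of 0.373 of the mock mean. PUB23 rose by 0.94 (SE 0.24, limma adjusted p = 0.025) and PUB26 by 0.84 (SE 0.23, limma adjusted p = 0.034) with ratios to the mock mean of 1.93 and 1.95.

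The fall of PUB19 kept its call under all 25 other settings run. The other calls did not. PUB23 lost its call without mock replicate 2 (0.63, limma adjusted p = 0.17) and without NAA replicate 2 (0.69, limma adjusted p = 0.16). PUB26 lost it without mock replicate 1 (0.67, limma adjusted p = 0.15), mock replicate 2 (1.01, limma adjusted p = 0.052) or NAA replicate 1 (0.62, limma adjusted p = 0.23). Median centring and quantile normalization also ended the call of PUB26 (0.75 in both, limma adjusted p = 0.075 and 0.068), as did array weights (0.84, limma adjusted p = 0.073). With only the arrays compared in the fit, both calls were lost (limma adjusted p = 0.18 for PUB23 and 0.15 for PUB26).

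In DEX-treated roots NAA raised 1 of the 6 genes and lowered 1, where 14.1% of probe sets rose and 9.82% fell. PUB25 rose by 0.71 (SE 0.19, limma adjusted p = 0.021) and PUB19 fell by 0.62 (SE 0.17, limma adjusted p = 0.024). Both calls depended on single arrays. PUB25 was at 0.65 without DEX replicate 1 (limma adjusted p = 0.1), at 0.76 without DEX replicate 2 (0.062) and at 0.55 without NAA+DEX replicate 1 (0.14). PUB19 was at -0.43 without DEX replicate 1 (limma adjusted p = 0.17), and at -0.59 and -0.64 without NAA+DEX replicate 1 and 2 (0.1 and 0.076).

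With CHX present, PUB19 was the only member with a call for NAA. In NAA+CHX against CHX none of the 6 genes passed limma's test, where 0.167% of all probe sets passed at an adjusted p under 0.05. PUB19 alone had an unadjusted p under 0.05. The share of all probe sets at that unadjusted threshold was not counted. PUB19 differed there by -0.57 (SE 0.17, limma adjusted p = 0.22). In NAA+DEX+CHX against DEX+CHX it fell by 0.91 (SE 0.17, limma adjusted p = 0.034), where 0.536% of probe sets fell, and the other 5 genes were between -0.25 and 0.07. Leaving out either DEX+CHX array ended that call (limma adjusted p = 0.13 and 0.2), as did leaving out either NAA+DEX+CHX array (0.065 and 0.2). It was also lost without either array of the NAA+DEX or the NAA+CHX group, which the comparison does not use (0.052 to 0.055), and with a pseudocount of 1 (0.065).

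PUB19 was lower in both NAA arrays than in both controls in 4 of 4 backgrounds, which share no array with each other. The share of all probe sets lower without overlap was 21.8% against mock, 25% with DEX, 21.8% with CHX and 22.3% with DEX+CHX. The share lower in all 4 backgrounds was not counted, so nothing is read from the 4 of 4. Averaged over roots with and without DEX, a contrast chosen after seeing the data, NAA lowered PUB19 by 0.92 without CHX (SE 0.12, limma adjusted p = 2e-04) and by 0.74 with CHX (SE 0.12, limma adjusted p = 0.0093). The background of such falls was 12.2% and 1.77% of probe sets. The 2 mean effects differed by 0.18 (95% confidence interval -0.2 to 0.56, limma adjusted p = 0.56). Both falls kept their calls under all 25 other settings.

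PUB25, PUB23 and PUB26 rose with NAA in the same average over roots without CHX, where 18.3% of probe sets did. The log2 rise was 0.59 for PUB25 (SE 0.13, limma adjusted p = 0.0068), 0.58 for PUB23 (SE 0.17, limma adjusted p = 0.024) and 0.57 for PUB26 (SE 0.16, limma adjusted p = 0.021). PUB25 kept its call under all 25 other settings. PUB23 lost it without replicate 2 of mock, DEX, NAA or NAA+DEX (limma adjusted p = 0.069 to 0.091), and PUB26 without replicate 1 of the same groups (0.054 to 0.082). PUB26 also lost it under quantile normalization and median centring (0.46 in both, limma adjusted p = 0.065 and 0.073), and both genes lost it when only the arrays compared were fitted (0.073 for PUB23 and 0.061 for PUB26). PUB22 and PUB24, at -0.07 (95% interval -0.3 to 0.15) and -0.16 (-0.39 to 0.06), did not pass.

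With CHX the same average of NAA effects was -0.25 for PUB25 and -0.28 for PUB26, neither of which passed the test. The difference from roots without CHX was -0.84 for PUB25 (SE 0.19, limma adjusted p = 0.014) and -0.85 for PUB26 (SE 0.23, limma adjusted p = 0.03). Of all probe sets, 8.15% passed the test with a lower NAA effect with CHX in this contrast. This contrast was also chosen after seeing the data. The result for PUB25 kept its call under all 25 settings. That for PUB26 lost it under quantile normalization, under median centring and without any of 10 single arrays, with limma adjusted p-values of 0.055 to 0.075. For PUB23 the difference was -0.53 (95% interval -1.06 to 0, limma adjusted p = 0.18).

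**Figure D4:**
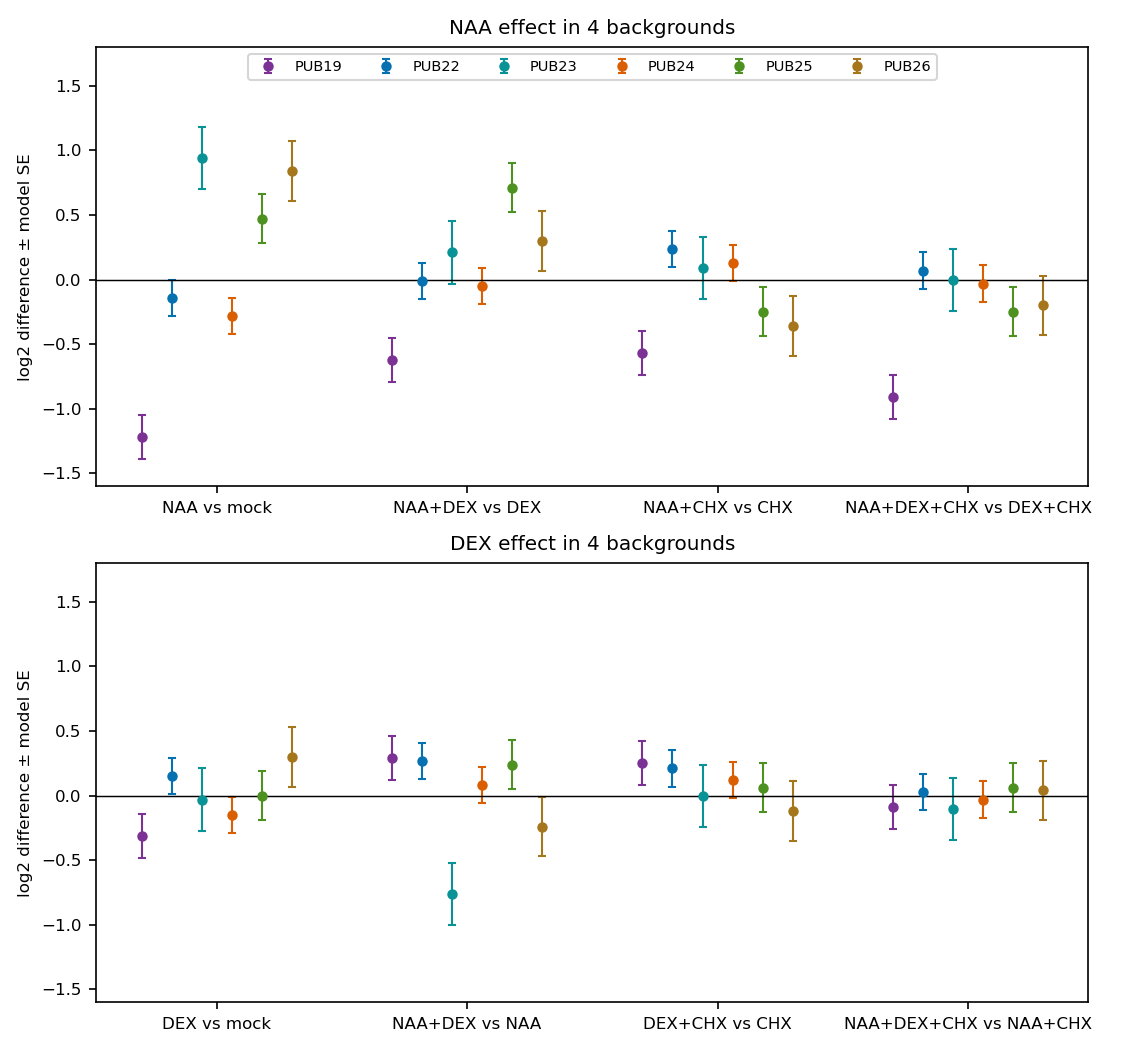
Log2 difference for NAA and for DEX in 4 backgrounds each, with 1 point per PUB gene and the model SE as bars. PUB19 lies below 0 in all 4 NAA comparisons, from -1.22 to -0.57, while the DEX values lie between -0.76 and 0.3 and none passed the test.

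For DEX, which lets such a fusion as LBD16-GR enter the nucleus, none of the 6 genes passed limma's test in any of 4 backgrounds. The LBD16 probe set does not show whether the fusion was active, so nothing is read here about LBD16. An unadjusted p under 0.05 was seen for 0 genes against mock, 1 in NAA-treated roots, 0 in CHX-treated roots and 0 in NAA+CHX-treated roots. The share of all probe sets called, at an adjusted p under 0.05, was 0.0528%, 2.93%, 0.0528% and 0.11% in that order. Their share at an unadjusted p under 0.05 was not counted. The 1 gene was PUB23, whose NAA+DEX arrays (482.1 and 637.3) were both below its NAA arrays (792.7 and 1134.8), with a log2 difference of -0.76 (SE 0.24, 95% interval -1.28 to -0.23, limma adjusted p = 0.14). Under an intensity trend with a robust prior this difference passed, at a limma adjusted p of 0.029.

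The DEX effect averaged over the 4 backgrounds, also chosen after seeing the data, ran from -0.22 for PUB23 to 0.17 for PUB22. None of the 6 passed limma's test (lowest adjusted p = 0.42), where 1.04% of probe sets passed by adjusted p. PUB22 alone had an unadjusted p under 0.05, a threshold at which the share of all probe sets was not counted. The 95% intervals of these averages reached from -0.48 at the lowest, for PUB23, to 0.32 at the highest, for PUB22. The interval of each gene bounds only its own mean effect, and the size of effect that 16 arrays could detect was not computed. NAA against mock and DEX against mock share the mock arrays, so their values are not independent.

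The difference in DEX effect between roots with and without NAA passed limma's test for none of the 6 genes (lowest adjusted p = 0.38). By adjusted p 0.822% of probe sets passed, while PUB19 was the 1 member with an unadjusted p under 0.05. For unadjusted p no share over all probe sets was counted. The difference was 0.6 for PUB19 (95% interval 0.07 to 1.14) and -0.73 for PUB23 (-1.47 to 0.02). Without DEX, the NAA effect differed between roots with and without CHX by -1.2 for PUB26 (SE 0.32, limma adjusted p = 0.066). None of the 6 passed there, where 4.51% of probe sets passed by adjusted p. An unadjusted p under 0.05 was found for 4 members. The share of all probe sets at that threshold was not counted, so nothing is read from it. With DEX, PUB25 passed at -0.96 (SE 0.27, limma adjusted p = 0.049), a call lost in 19 of 25 other settings. There 4.95% of all probe sets passed the test with a lower NAA effect with CHX.

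Other genes of the ubiquitin pathway were taken from lists by gene symbol, and only part of each list had a named probe set. Of 21 other U-box genes matched by symbol in the reference, 3 were measured (PUB15, PUB43 and PUB49). None of these passed limma's test for CHX in DEX-treated roots without NAA, where 24.2% of all probe sets rose and 26.6% fell. None had an unadjusted p under 0.05, a threshold at which the share of all probe sets was not counted. The log2 differences of these 3 genes were -0.27, 0.19 and -0.2. With NAA, PUB43 rose by 0.6 (SE 0.18, limma adjusted p = 0.013), where 22.3% of all probe sets rose. Counts over 3 genes do not show how the other U-box genes respond. PUB15 was near the lowest intensities of the array, at 18.31 in DEX and 13.06 in DEX+CHX.

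Most measured E2 enzymes, the ubiquitin-carrying partners of ubiquitin ligases, fell with CHX. Of 37 genes 13 were measured, and in DEX+CHX against DEX 9 fell, 2 rose and 2 did not pass, beside 26.6% of all probe sets lowered and 24.2% raised. Their median log2 difference was -0.98, against -0.02 over all probe sets. UBC19 and UBC20, E2 enzymes of the cell cycle, differed by -1.38 (SE 0.12, limma adjusted p = 1.7e-06) and -1.68 (SE 0.18, limma adjusted p = 9.4e-06). UBC29 and UBC28, of the UBC8 group with which many ligases work in vitro, differed by -1.48 (SE 0.13, limma adjusted p = 2.4e-06) and -1.07 (SE 0.13, limma adjusted p = 3.6e-05). UBC16 and UBC37 rose, by 0.76 and 0.62. With NAA, 9 fell and 1 rose, beside 29.8% of all probe sets lowered and 22.3% raised.

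Among known partners and signalling genes 3 of 24 were measured, and 2 rose and 1 fell in DEX+CHX against DEX, beside the 24.2% of all probe sets raised and 26.6% lowered there. BIK1, an immune receptor-associated kinase and a target of PUB25 and PUB26, rose by 2.13 (SE 0.16, limma adjusted p = 6.4e-07), from a mean intensity of 698.6 to 3122. EFR, the receptor for the bacterial protein EF-Tu, rose by 2.53 (SE 0.32, limma adjusted p = 3.8e-05), from 5.319 to 106.3. RPN12a, a proteasome lid subunit that PUB22 and PUB23 ubiquitinate, fell by 0.97 (SE 0.12, limma adjusted p = 3.5e-05). It was also the 1 measured gene of 22 proteasome subunits in the reference. With NAA the log2 differences of these genes were 2.87, 2.28 and -1.2.

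Of 14 ATL genes matched by symbol in the reference, which encode RING-H2 ligases of another family, 3 had a named probe set. ATL5 rose by 2.09 with CHX in DEX-treated roots (SE 0.17, limma adjusted p = 1.4e-06), and ATL63 and ATL8, at -0.55 and -0.28, did not pass. Of all probe sets, 24.2% rose and 26.6% fell there. In the background with NAA, ATL63 fell by 3.35, ATL8 fell by 1.4 and ATL5 rose, beside 29.8% of all probe sets lowered and 22.3% raised. NAA against mock raised ATL63 by 2.5 (SE 0.26, limma adjusted p = 8.7e-05) and ATL8 by 1.14 (SE 0.21, limma adjusted p = 0.0049), and ATL5 fell by 0.61 (SE 0.17, limma adjusted p = 0.042). No measured gene of the other lists passed for NAA against mock, where 7.3% of all probe sets rose and 6.07% fell. No gene of any list passed for DEX in any of the 4 backgrounds, where 0.0528% to 2.93% of all probe sets were called. For the DEX effect averaged over backgrounds, ATL63, named here after its values were seen, rose by 0.67 (SE 0.13, limma adjusted p = 0.035). Its log2 difference was 0.41 against mock, 0.2 with NAA, 1.44 with CHX and 0.62 with NAA+CHX.

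**Figure D5:**
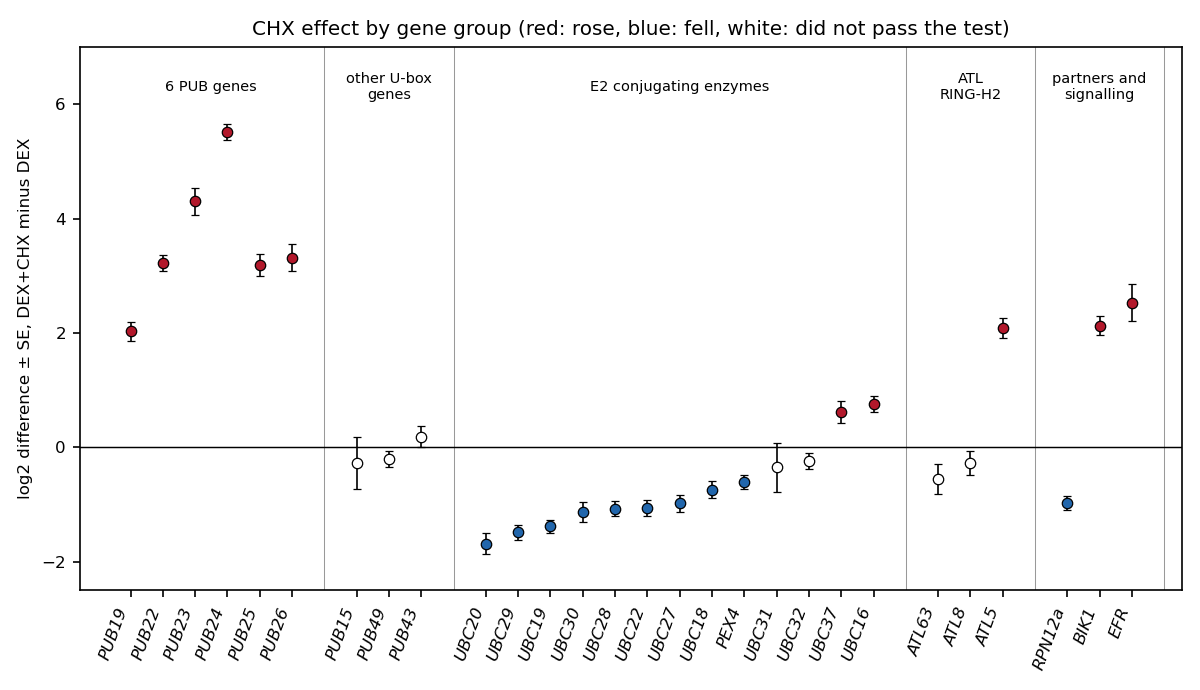
Log2 difference of DEX+CHX minus DEX for the 6 PUB genes and the measured genes of the pathway lists, with the model SE as bars. Red points rose, blue points fell and white points did not pass the test: all 6 PUB genes are red, and 9 of 13 E2 enzymes are blue.

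The 6 profiles differed mainly in the size of the CHX step and in the NAA response. Likeness was measured as the root mean square difference between 2 profiles of log2(intensity + 16) over 16 arrays, each centred on its own mean. PUB25 and PUB26 were the closest pair at 0.293, followed by PUB22 and PUB26 at 0.374, and PUB19 and PUB24 were the most distant at 1.875. Each gene had probe sets of other genes nearer than any other member, and all profiles share the CHX step, so the order describes these arrays only.

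For PUB19 the nearest genes were TBL37, of a family that acetylates wall polysaccharides, at 0.221, WAG2, a kinase of auxin transport, at 0.26, and AT5G58530 at 0.27. WAG2 was at 165.7 to 569.2 without CHX and at 999.1 to 1706 with it. For PUB22 they were AT4G38940 at 0.154, AT1G59910 at 0.158 and AT1G18390 at 0.175, and for PUB23 AT5G04760 at 0.223, AT4G37240 at 0.241 and AT4G24160 at 0.248. PUB24 was nearest to AT1G55450 at 0.174, the lectin receptor kinase gene B120 at 0.183 and AT5G40180 at 0.244. B120 was at 82.71 to 149.9 without CHX and at 4781 to 6147 with it.

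PUB25 was nearest to AT1G63830 at 0.156, AT4G26400 at 0.179 and AT3G21650 at 0.216. For PUB26 they were SAG101, a partner of the immune regulator EDS1, at 0.201, AT2G32190 at 0.253 and GLX2-4 at 0.254. SAG101 was at 36.26 to 95.48 without CHX and at 667.8 to 1020 with it.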

How the data were processed

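The members and gene lists were chosen with earlier results of these data known. Arrays were assigned to 8 groups from their titles. The deposited table holds 1 linear intensity per probe set and array, made by the authors with Affymetrix Expression Console 1.3 per the submitters' processing notes. The summary method and scaling are not given in the sources used here, and the 2% trimmed mean was 500 to 500.1 on every array. Per the labels, either of 2 labelling kits was used, with no word on which array had which, so the kit is no term of the fit. Of 22810 probe sets, 64 controls were removed and 22746 tested with no filter. Of these, 13513 had 1 listed gene, 503 several and 8730 none. No coordinates are given, since the annotation names no build.

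The scale was log2(intensity + 16), on which changes of weak signals come out too small. It was fitted in 1 group-means model of all 16 arrays with limma 3.58.1 (R 4.3.3; 8 residual degrees of freedom, two-sided, Benjamini-Hochberg over all probe sets, 95% intervals unadjusted). Each probe set has 1 variance estimate, common to all comparisons. The number of arrays limits the precision. Probe sets with exactly 1 listed gene were used for names, the brightest where a gene had several, with up to 4 called genes per list and the 3 nearest genes per member. The code was tested on simulated data. Alternatives covered pseudocounts, a filter, normalization, centring, weights, the variance prior, the arrays fitted, a replicate block and each array left out. Promoter and protein sequences were not analysed here.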

Additional observations from a re-analysis of the deposited data

Results flagged for a closer look

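The NAA effect on PUB25 was lower with CHX than without it by 0.96 in DEX-treated roots (log2 difference of effects -0.96, limma adjusted p = 0.049), and by 0.84 in the average over roots with and without DEX (-0.84, limma adjusted p = 0.014). The averaged contrast was chosen after seeing the data. The first call was lost in 19 of 25 other settings, among them median centring (limma adjusted p = 0.079), and the second in none. For PUB26 the averaged difference was -0.85 (limma adjusted p = 0.03), a call lost in 12 of 25 other settings, among them median centring (limma adjusted p = 0.068).

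In roots without DEX, both NAA arrays of PUB26 were above both mock arrays, while both NAA+CHX arrays were below both CHX arrays. The 2 effects differed by -1.2 on the log2 scale, and this difference did not pass (limma adjusted p = 0.066). The pattern was picked out by looking over every member and several pairs of comparisons. The share of all probe sets with such opposite separation was not counted, so nothing is read from it.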

How the results depend on the processing

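Every comparison was recomputed under 25 other settings, 16 of which left out 1 array. The rise of all 6 genes with CHX in DEX-treated roots, with and without NAA, kept its count in all 25. If the genes were chosen for their CHX response, the kept count is no independent support. Of 2550 recomputed values of tested members, 2407 kept direction and side of the threshold. The 300 recomputed values of the CHX comparisons without DEX, which have no test, all kept their sign. Each member has 1 probe set, so another probe set of the same gene could not be tried, and a filter at a mean intensity of 50 kept 16334 probe sets.

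The median CHX difference against mock was 3.13 with a pseudocount of 64 (3.45 as reported) and 3.45 to 3.62 with 1 array left out. The number of members called for NAA against mock was 1 when only the arrays compared were fitted and 1 to 3 with 1 array left out. For NAA in DEX-treated roots it was 0 and 0 to 2. In DEX+CHX-treated roots it was 0 with only the arrays compared and with a pseudocount of 1, and 0 to 1 with 1 array left out. DEX in NAA-treated roots had 1 call under an intensity trend with a robust prior. The NAA by CHX difference without DEX had 1 call with a pseudocount of 64, the filter or that prior, and 0 to 1 with 1 array left out. With DEX it had 0 calls with a pseudocount of 1, quantile normalization, median centring or only the arrays compared, and 0 to 1 with 1 array left out. The mean NAA effect without CHX had 2 calls with only the arrays compared and 3 to 4 with 1 array left out. Its difference from roots with CHX had 1 call under quantile normalization and under median centring, and 1 to 2 with 1 array left out. Median centring shifted all differences of CHX against mock by -0.16, of NAA in DEX-treated roots by -0.13, of the mean NAA effect without CHX by -0.11 and of the NAA by CHX difference with DEX by 0.11. The causes were not tested. Fewer arrays leave fewer degrees of freedom, and the part of this in the lost calls was not tested either.

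Same-numbered arrays did not deviate together (correlations -0.06 to 0.07 over 28 pairs of groups), so the numbers were not used as pairs. A replicate block left 0 calls for the NAA by CHX difference with DEX (PUB25, -0.96, limma adjusted p = 0.067) and moved no other count of calls by over 1.5 times.

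The sign of 32 member values changed in some setting. None was called in any setting, and the largest was 0.24 in size as reported. With 1 array left out, NAA against mock ran from -0.3 to 0.03 for PUB22. In DEX-treated roots NAA ran from -0.04 to 0.02 for PUB22 and from -0.21 to 0.1 for PUB24. In CHX-treated roots it ran from -0.07 to 0.26 for PUB23 and from -0.03 to 0.28 for PUB24, and in DEX+CHX-treated roots from -0.13 to 0.13 for PUB23 and from -0.44 to 0.03 for PUB26. DEX against mock ran from -0.02 to 0.31 for PUB22, -0.34 to 0.27 for PUB23, -0.3 to 0.01 for PUB24 and -0.2 to 0.2 for PUB25. In NAA-treated roots DEX ran from 0 to 0.16 for PUB24 and -0.54 to 0.06 for PUB26. In CHX-treated roots it ran from -0.16 to 0.16 for PUB23, -0.03 to 0.28 for PUB24, -0.1 to 0.22 for PUB25 and -0.35 to 0.12 for PUB26. In NAA+CHX-treated roots it ran from -0.29 to 0.11 for PUB19, -0.04 to 0.11 for PUB22, -0.21 to 0.02 for PUB23, -0.08 to 0.01 for PUB24, -0.11 to 0.23 for PUB25 and -0.04 to 0.12 for PUB26. The NAA by CHX difference with DEX ran from -0.14 to 0.18 for PUB24, and the DEX by NAA difference from -0.04 to 0.29 for PUB22. The mean NAA effect ran from -0.16 to 0.01 for PUB22 without CHX, and with CHX from -0.04 to 0.13 for PUB23 and from -0.03 to 0.13 for PUB24. The mean DEX effect ran from -0.01 to 0.08 for PUB19, -0.03 to 0.05 for PUB24 and -0.08 to 0.07 for PUB26.

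Median centring turned the sign of DEX against mock for PUB23 (0.05) and PUB25 (0.08), of DEX in CHX-treated roots for PUB23 (0.03), of DEX in NAA+CHX-treated roots for PUB24 (0) and of the mean DEX effect for PUB26 (0.04). Quantile normalization turned DEX against mock for PUB25 (0.08), the mean DEX effect for PUB26 (0.03) and the mean NAA effect with CHX for PUB23 (-0.01). A pseudocount of 64 turned the mean NAA by CHX difference of PUB19 (-0.01), and a pseudocount of 1 turned DEX against mock for PUB25 and the mean DEX effect for PUB26 (both 0).

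Dim probe sets limit the fold changes of PUB15 and EFR.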
